A study of Mus musculus with 4 samples.

Results

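Thymic regulatory T cells (Tregs) of deltaDC mice were compared with those of wild-type (WT) mice on 1 microarray each, 2 of the 4 arrays of the study. The features compared were the genes whose probe was well above background on both thymus arrays, 13041 of the 22314 genes that could be named. WT thymus was cells of male C57BL/6 mice of wild-type genotype, and deltaDC thymus was cells of male C57BL/6 mice of the deltaDC genotype, in each case pooled from 3 mice before sorting. The labels leave the term deltaDC unexplained. In the field it stands for mice that lack dendritic cells, commonly made with a Cre recombinase under the Itgax (CD11c) promoter, but no transgene, promoter or age is named in the labels. Thymus cells of both genotypes were depleted with an antibody to CD8 and sorted as DAPI-negative cells positive for CD4 and CD25, so Foxp3 was not part of the gate. The spleen arrays of the same design, WT spleen and deltaDC spleen, hold CD4+ CD25+ cells of the same pools of mice and are used here only beside the thymic values.

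Tregs are CD4 T cells that hold immune responses in check under the control of the transcription factor Foxp3. They arise in the thymus, where developing T cells meet self-peptides on medullary epithelial cells and on dendritic cells, and where interleukin-2 supports those that have begun to differentiate. Mature Tregs can also return to the thymus from the periphery, so a thymic Treg sort can hold newly formed and recirculating cells, together with any other cell that passes the gate.

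Each array measured Cy3-labelled RNA with 59305 non-control spots of 55681 probes. Values are the brightness of a probe in arbitrary intensity units, given here as measured, and differences are in log2 units, deltaDC minus WT, after each array was scaled by its 75th percentile of signal, which was 406.5 on the WT and 417.5 on the deltaDC thymus array. Of the spots, 50.2% were well above background on the WT thymus array and 50.6% on the deltaDC thymus array. With 1 array per group there is no replicate and no test, and precision is limited by how few arrays there are. The error given after ± is the SD expected from repeated spots of a probe. It was taken from 399 probes spotted 10 times, where these were well above background on the array. At signals under 50 these were 19 probes on the WT and 22 on the deltaDC thymus array. This SD was 0.28 on the WT and 0.30 on the deltaDC thymus array at signals under 50, and 0.062 and 0.057 at signals of 1000 to 10000. It holds nothing of the variation between mice, sorts or labellings. A difference of at least 2-fold is called higher or lower, and a gene above background on only 1 of the arrays is given a bound.

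Most genes had close to the same signal on both thymus arrays. The median difference over the 13041 genes was 0.054, with an SD of 0.323, and 91.8% of the genes lay within 0.5 of 0. At least 2-fold different were 209 genes, 1.6% of those measured, of which 121 (0.928%) were higher and 88 (0.675%) lower on the deltaDC array. Only 21 genes reached 4-fold, 14 higher and 7 lower. A further 828 genes were above background on 1 of the arrays, and for 252 of them (30.4%) the bound reached 2-fold. The calls lay mostly among dim genes: 5.85% of 1059 genes with a mean signal of 50 to 100 were called, against 0.445% of 5612 genes at 500 to 5000 and 0.281% of 2491 genes above 5000. Of the 209 genes, 26 had more than 1 measured probe, and in 5 of these, Cyp4f18, C2cd4b, Mpo, Ifitm1 and Lilrb4a, every probe was at least 2-fold different in the same direction, while in 7 a probe pointed the opposite way.

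**Figure D1:**
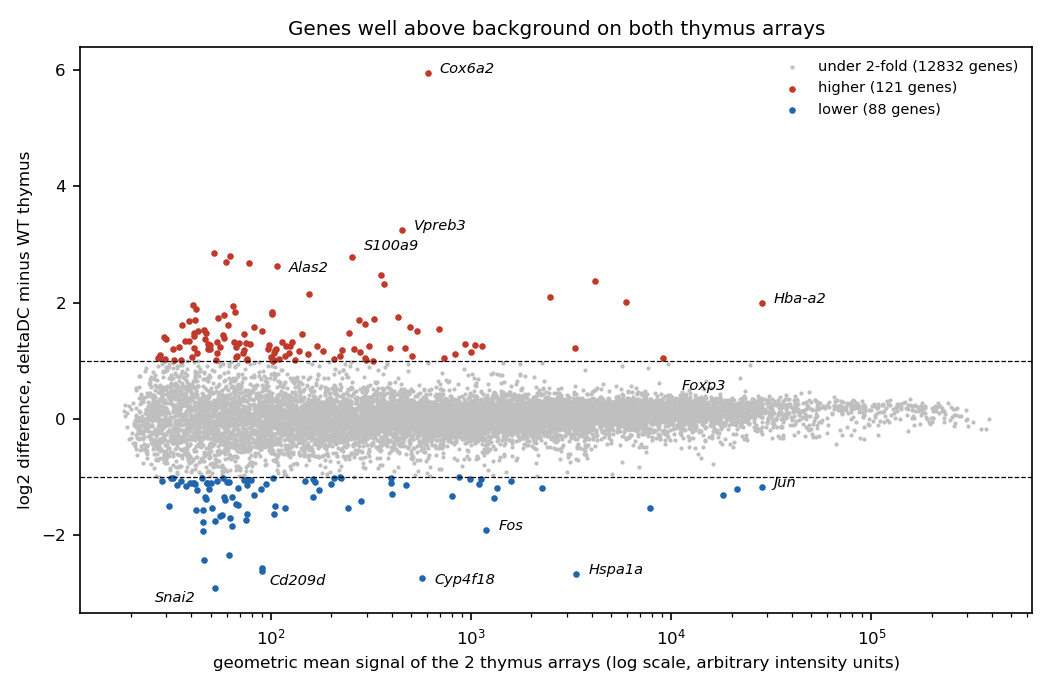
Log2 difference, deltaDC minus WT thymus, against the geometric mean signal of both thymus arrays (log axis) for the 13041 genes above background on both. Red points are the 121 genes at least 2-fold higher and blue points the 88 lower on the deltaDC array; the scatter narrows toward bright signals, and Cox6a2 stands alone near 6.

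The thymic cells of both genotypes carried the Treg programme at like levels. Foxp3 gave a signal of 9283 on the WT and 11360 on the deltaDC thymus array, a difference of 0.25 ± 0.08. Il2ra, which encodes the CD25 used in the sort, gave 29438 and 27409 (-0.14 ± 0.07), and Ctla4, an inhibitory receptor that removes costimulatory ligands from other cells, 1854 and 1921 (0.01 ± 0.08). Ikzf2, the Helios gene typical of thymic Tregs, gave 9840 and 9433, and Tnfrsf18, the costimulatory receptor GITR, 43716 and 50826 (0.18). All 18 core Treg genes were measured and 0 of them differed 2-fold, with a list median of -0.002. The widest differences in this list were all downward. Entpd1 and Nt5e, the ectoenzymes that turn extracellular ATP into adenosine, gave 86.7 and 50.9 (-0.81 ± 0.24) and 4477 and 3036 (-0.60 ± 0.08). Nrp1, a surface receptor of thymus-derived Tregs, gave 696 and 441 (-0.70 ± 0.11), and Itgb8, an integrin chain that activates TGF-beta, 145 and 100.2 (-0.57 ± 0.16). The markers shared by all T cells had 12 measured members, 0 of them 2-fold different, with Cd3e at 37873 and 43569 and Cd4 at 12200 and 13019.

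Genes of newly formed thymic T cells were bright on both thymus arrays. Rag1, a recombinase that assembles antigen receptor genes, gave 2653 on WT and 2555 on deltaDC (-0.09 ± 0.06), while its spleen signals of 15.2 and 3.22 lay near background. Dntt, which adds bases at receptor joints, gave 48490 and 45356 (-0.13), and Ptcra, the partner chain of the pre-T cell receptor, 3743 and 3435 (-0.16). Cd24a, a surface protein lost on maturation, gave 3871 and 4745 (0.26 ± 0.08), and Ccr7, the receptor that guides thymocytes to the medulla and T cells to lymph nodes, 37609 and 52713 (0.45 ± 0.07). Of the 26 members of this list, all measured, 0 differed 2-fold and the median was 0.077. Cd8a was nearest to the threshold at 108.0 and 218.0 (0.97 ± 0.04), beside Cd8b1, the other chain of CD8, at 664 and 806 (0.24). CD8 was the target of the depletion step, and its part in the value of Cd8a was not tested.

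Genes of recirculating and effector Tregs showed no such shift in the thymus as they did in the spleen. Of 34 genes 33 were measured on both thymus arrays, 1 was higher and the median was 0.015, whereas on the spleen arrays 30 of 34 were at least 2-fold higher in deltaDC with a median of 2.165. Ccr6, a chemokine receptor used as a mark of recirculating thymic Tregs, gave 22652 on WT thymus and 17232 on deltaDC thymus (-0.43 ± 0.07), but 6090 and 16852 on the spleen arrays (1.27). Il1r2, a decoy receptor for interleukin-1, gave 3545 and 2973 in the thymus (-0.29) against 3.02 in the spleen. Anxa1, a phospholipid-binding protein that dampens inflammation, was the 1 member called, at 225 and 464 (1.01 ± 0.12). It came under 2-fold with median scaling (0.97), the median over probes (0.97) and normexp (0.845), a background correction that adds an offset to all signals. Klrg1, a marker of terminally differentiated cells, followed at 1021 and 2052 (0.97 ± 0.08), and the interleukin-33 receptor Il1rl1 gave 1319 and 2319 (0.78). The share of genes called over all genes was 8.43% on the spleen arrays, 6.42% higher and 2.01% lower, against 1.6% in the thymus. The difference between the organs was not tested.

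**Figure D2:**
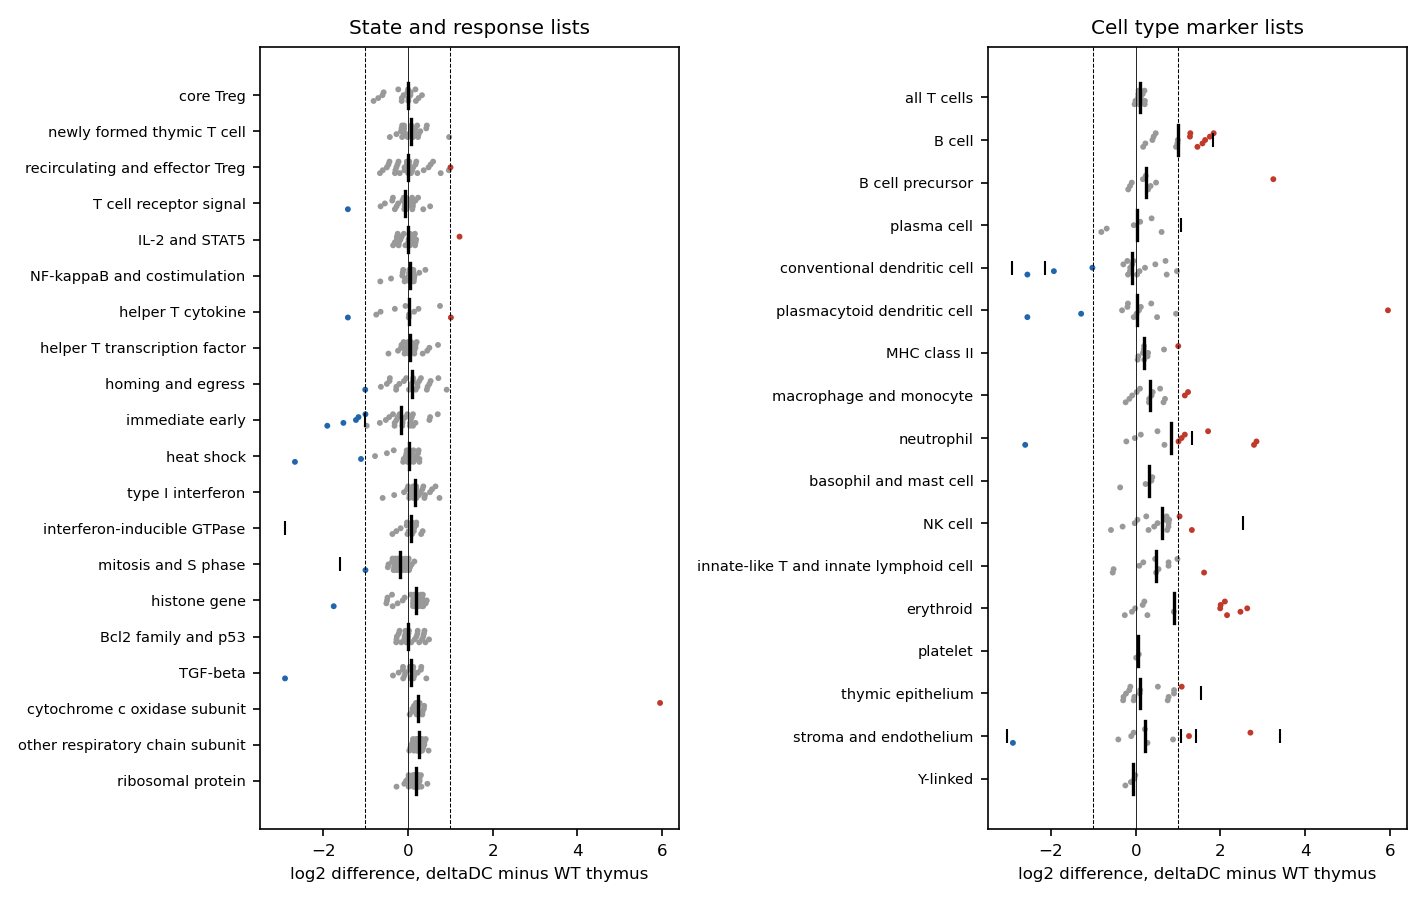
Log2 difference, deltaDC minus WT thymus, of each measured gene in 20 state or response lists and 17 cell type marker lists. Thick bars are list medians, small black ticks are bounds of genes dim on 1 array, red and blue points are at least 2-fold higher or lower; the B cell, neutrophil, NK cell and erythroid lists have the highest medians and the state lists sit near 0.

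The gene with the widest measured difference was Cox6a2, a subunit of cytochrome c oxidase known from heart and skeletal muscle and, among immune cells, from plasmacytoid dendritic cells. Its signals were 76.0 on WT thymus and 4834 on deltaDC thymus, 62-fold apart (5.95 ± 0.17), and 4.35 on WT spleen and 53.1 on deltaDC spleen. So it was bright on the deltaDC thymus array alone, and in the spleen it passed background only in deltaDC. Cox6a1, the form made in most tissues, gave 68539 and 81815 (0.22 ± 0.07). The other subunits of the enzyme that were measured, 14 in number, lay between 0.04 and 0.39. Cox6a2 was also 1 of 13 measured genes in the list for plasmacytoid dendritic cells, of which it was the only one higher. In that list Tcf4, the transcription factor that maintains these cells, was lower at 620 and 261 (-1.29 ± 0.11), and Cd209d, a lectin, was lower at 214 and 37.4 (-2.56 ± 0.31). Siglech, a surface lectin that marks them, gave 51730 and 46422 at its brightest probe (-0.19) and -1.04 at another probe. The brightest probe also gave 61409 and 45514 on the spleen arrays, and whether it reports Siglech in these sorted T cells could not be checked. The median of this list was 0.02.

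Probes around Cox6a2 were read after its value was known. The gene lies on mm9 chromosome 7, where the integrin genes Itgam, Itgax and Itgad are its neighbours. Within 150 kb on either side 14 probes were placed and 11 were measured on both thymus arrays, 3 of them higher and 0 lower on deltaDC. The probe of 4931431B13Rik, 3.54 kb from that of Cox6a2 on the same reverse strand, gave 23.4 and 167 (2.79 ± 0.30). Its 60 bases are shown because no protein product names this transcript, with position chr7:135345617-135345676 on the reverse strand of mm9, in lower case with no part marked.
4931431B13Rik: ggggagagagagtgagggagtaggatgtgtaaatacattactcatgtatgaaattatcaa
One probe of Itgam, the CD11b gene, gave 41.6 and 118 (1.46), and another probe of it 2417 and 2578 (0.05). Itgax, which encodes CD11c and lies 55.1 kb from the Cox6a2 probe, gave 222 and 187 (-0.29 ± 0.14). Itgad, the nearest integrin gene, gave 26.4 and 38.6 (0.51). High values were thus limited to 3 of the 11 probes, and the genes on the far side of Cox6a2 lay between -0.31 and 0.62.

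**Figure D3:**
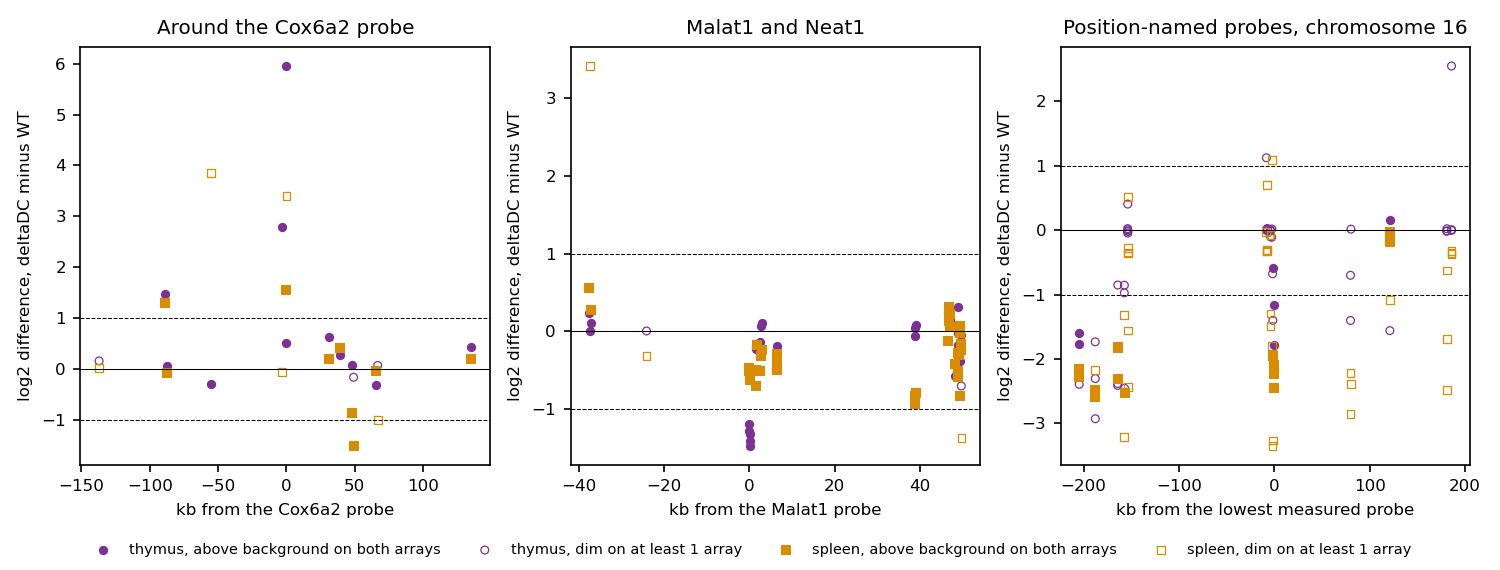
Log2 difference, deltaDC minus WT, of single probes against the distance in kb from the Cox6a2 probe, from the Malat1 probe and from the lowest measured probe of the chromosome 16 group. Purple circles are thymus and orange squares spleen, filled where the probe was above background on both arrays; the Cox6a2 probe reaches 5.95, a group at the end of Malat1 lies below -1, and the chromosome 16 group lies below -1 in both organs.

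Genes of B cells were higher on the deltaDC thymus array. Of 18 listed genes 15 were measured, 7 were at least 2-fold higher, 0 lower, and all 15 lay above 0, with a median of 0.993 against 0.054 over all genes. Among the 9 members above background on all 4 arrays, 3 were higher and the median was 0.472. Cd79a, a signalling chain of the B cell antigen receptor, gave 165 on WT and 528 on deltaDC (1.64 ± 0.13) at its brightest probe. This probe is placed on mm9 chromosome 12, and whether it reports Cd79a could not be checked. A second probe of the gene gave 0.92, under the threshold. The brightest probe was weak in the spleen, at 38.4 on WT and 34.0 on deltaDC. Ms4a1, which encodes CD20, gave 282 and 864 (1.58), Fcrla, an intracellular Fc receptor-like protein of B cells, 52.5 and 193 (1.84), and Fcer2a, the CD23 gene, 84.9 and 239 (1.46). The signalling adaptor Blnk gave 587 and 1473 (1.29), and Pou2af1, a transcriptional coactivator, 661 and 1648 (1.28). Ebf1, a factor that commits cells to the B lineage, was above background on deltaDC only and at least 3.56-fold higher. Other members were under the threshold, with Cd79b at 2776 and 3823 (0.42) and Cd72 at 3282 and 3949 (0.23). The summed signal of the measured and dim members was 9928 on WT and 16033 on deltaDC thymus, and Pax5 and Ighm were not well above background on either array.

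Vpreb3, a small protein that binds immunoglobulin chains in developing B cells, had the second widest difference of the measured genes. It gave 144 on WT and 1404 on deltaDC thymus, 9.5-fold apart (3.25 ± 0.12), and 63.8 and 42.2 on the spleen arrays. The other genes of B cell precursors did not share this. Vpreb1, part of the surrogate light chain, gave 372 and 450 (0.24), Vpreb2 29.8 and 42.6 (0.48), and Igll1 was not well above background. Of the 9 measured members of that list, Vpreb3 was the 1 called and the median was 0.236. Plasma cell genes had 0 of 6 measured members called, with Jchain, the joining chain of secreted antibodies, at 3491 and 2230 (-0.69) and a list median of 0.03. In sorted bulk cells, more cells of a type and more RNA per cell cannot be told apart, and the part of B cells that passed the gate was not tested.

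Haemoglobin genes were higher on the deltaDC thymus array. Hba-a2, an alpha-globin gene, gave 13978 on WT and 57188 on deltaDC (1.99 ± 0.07), and Hba-a1 2939 and 12118 (2.0 ± 0.08). The beta-globin genes Hbb-bs (149 and 848, 2.47 ± 0.13), Hbb-b2 (72.2 and 331, 2.16) and Hbb-bt (1177 and 5197, 2.10 ± 0.08) moved with them, and so did Alas2, the first enzyme of haem synthesis in red cells, at 42.3 and 269 (2.63 ± 0.29). The globin genes share long stretches of sequence, so their probes may not be independent. Of the 13 measured members of the erythroid list these 6 were higher and 0 lower, with a median of 0.899, or 0.612 with dim genes at their bound. That median was 0.3 over 22 genes with no filter on dim signals, and 0.276 over 11 genes at a signal of at least 100 on both arrays, where 4 were higher. Car2, a carbonic anhydrase, gave 222 and 425 (0.90). Gata1, the erythroid transcription factor, gave 2029 and 2524 (0.28), and Ahsp, Epb42, Rhag and Klf1 were not well above background on either array. The summed signal of the list was 60873 on WT and 115323 on deltaDC thymus, and 48718 and 60585 on the spleen arrays. Of these sums Hemgn, an erythroid nuclear protein, gave 30505 and 26197 in the thymus and 27358 and 24503 in the spleen, and whether its probe reports the gene could not be checked. The same 6 genes were at least 2-fold higher in deltaDC spleen, between 1.21 and 1.64. The part of red cell RNA in the other values was not tested.

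Several genes of neutrophils were higher on deltaDC, from low signals. S100a9 and S100a8, the calcium-binding proteins that fill the neutrophil cytosol, gave 94.7 and 673 (2.79 ± 0.17) and 18.9 and 140 (2.85 ± 0.30). On the spleen arrays they gave 3.39 and 6529, and 3.64 and 1499. Mpo, the myeloperoxidase of primary granules, gave 658 and 1509 (1.16 ± 0.10), with a second probe at 1.31. Chil3 gave 22.8 and 76.5 (1.71), Ltf, the lactoferrin of secondary granules, 45.7 and 99.4 (1.08), and the antimicrobial peptide gene Camp 36.8 and 76.2 (1.01 ± 0.33). In the other direction Stfa3, a stefin protease inhibitor, was lower at 220 and 37.0 (-2.61 ± 0.31), while Stfa1 was at least 2.49-fold higher. The neutrophil list had 12 measured members, 6 of them higher and 1 lower, and its median was 0.844. Another 10 members, among them Ly6g, Retnlg and Ngp, were not well above background on either array. When dim spots on the spleen arrays were also left out, which removed S100a8 and S100a9, that median was -0.02. The summed signal of the list was 47257 on WT and 43514 on deltaDC thymus, nearly all of it from Csf3r, the receptor of granulocyte colony-stimulating factor, at 45639 and 40217 (-0.22). This probe was as bright on the spleen arrays, at 47080 and 40039, and whether it reports Csf3r could not be checked. With normexp 3 members were higher with a median of 0.409, and at a signal of at least 100 on both arrays 1 of 5 was, with a median of 0.120.

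Macrophage and NK cell genes leaned the same way with fewer calls. Lyz2, the lysozyme of myeloid cells, gave 184 and 423 (1.16), and Fcgr1, the high-affinity IgG receptor, 22.4 and 54.1 (1.24). They were the 2 genes called among 14 measured macrophage and monocyte genes, whose median was 0.345, and C1qb and Apoe differed by 0.10 and 0.02. Of 16 measured NK cell genes 2 were higher, the lectin-like receptors Klrb1a at 33.4 and 85.9 (1.32 ± 0.33) and Klrb1c, which carries the NK1.1 epitope, at 51.9 and 109 (1.03 ± 0.19). The median of this list was 0.613. Nkg7, a granule protein at 7676 and 8111, differed by 0.04 in the thymus, while in the spleen it differed by 3.19. Ncr1 and Klrk1, receptors that define NK cells, were not well above background on either thymus array. The summed signal was 16626 on WT and 20897 on deltaDC thymus for the NK cell list, and 5123 and 5934 for the macrophage list. Of 11 measured genes of innate-like T and innate lymphoid cells 1 was higher, Il1r1, the signalling receptor of interleukin-1, at 20.1 and 63.3 (1.61 ± 0.33), and the median was 0.482. With normexp 0 genes of these 3 lists were called. At a signal of at least 100 on both arrays the medians were 0.0998 for the macrophage, 0.436 for the NK cell and 0.131 for the innate-like list. What part such cells have in these values was not tested.

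Genes of dendritic cells, the cells the genotype is named for, were scattered in the thymic sort. Of 17 measured genes of conventional dendritic cells 3 were lower, 0 higher, and the median was -0.083. One of them, Cd209d, was given above. Cd86, the costimulatory ligand of CD28 and Ctla4, gave 1387 on WT and 701 on deltaDC thymus (-1.02 ± 0.10) and 1444 and 564 on the spleen arrays (-1.56). Ccl17, a chemokine of thymic dendritic cells that attracts Ccr4-bearing cells, gave 88.2 and 23.8 (-1.93 ± 0.34). Cd209a, the DC-SIGN homologue, gave 125 on WT and was not well above background on deltaDC, at least 7.57-fold lower. Clec10a, another lectin, was above background on WT at 74.8 and not on deltaDC at 17.5, a ratio of 4.4 that is not a strict bound. With normexp 1 of the 3 was lower. Apart from Cd86, all of these lower genes were weak on both arrays.

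The genes that define the lineage differed less, and in both directions. Itgax was given above at -0.29, Zbtb46, a factor restricted to conventional dendritic cells, gave 78.2 and 70.8 (-0.18 ± 0.24), and Flt3, the receptor that drives their development, 111 and 189 (0.73 ± 0.16). Batf3, needed for the cross-presenting subset, gave 73.1 and 122 (0.70). Xcr1, Clec9a and Ccl22 were not well above background on either array. The summed signal of the list was 61183 on WT and 58935 on deltaDC thymus, most of it from Mgl2 at 51876 and 50304. The Mgl2 probe gave 82629 and 99031 on the spleen arrays, and whether it reports that gene could not be checked. On the spleen arrays Itgax gave 5.72 on WT and 94.7 on deltaDC.

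MHC class II genes, which present peptides to CD4 T cells and are carried by dendritic, B and epithelial cells, were nearly level. H2-Aa gave 1027 on WT and 1088 on deltaDC thymus (0.04 ± 0.08), H2-Ab1 7815 and 9038 (0.17 ± 0.08), and Cd74, the invariant chain, 5185 and 6461 (0.28 ± 0.08). On the spleen arrays the same genes gave 143 and 1324 (3.01), 1110 and 6735 (2.40), and 1320 and 6772 (2.16). So the WT spleen signal was the low one, and both thymus signals were near that of deltaDC spleen. Of 10 measured genes of this list all lay above 0 and 1 reached 2-fold, H2-Eb2 at 71.1 and 146 (1.0), with a median of 0.199. With normexp, median scaling or the authors' deposited matrix 0 of them did.

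Stress-inducible genes were lower on the deltaDC thymus array, and this held for a few named genes rather than for whole lists. Hspa1a, the inducible Hsp70 chaperone, gave 8340 on WT and 1351 on deltaDC thymus (-2.66 ± 0.08), and 126 and 51.7 on the spleen arrays (-1.49). Its probe also matches the neighbouring copy Hspa1b, so the value belongs to both genes. Hspb1, a small heat shock protein, gave 572 and 273 (-1.10), and Dnajb1, the Hsp40 partner of Hsp70, 20866 and 12528 (-0.77). These 3 are classical targets of heat shock factor, as are Hsph1 and Hspa8, which gave 5605 and 5751 (0.00) and 88926 and 93166 (0.03). Of 27 measured heat shock genes 2 were lower, 0 higher, and the median was 0.029.

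The promoters of the 2 called heat shock genes are shown because a heat shock element is built from short inverted repeats, spelled GAANNTTC or TTCNNGAA here and searched on both strands. Sequences are the 250 bases before the gene start in RefSeq's GRCm38.p6 annotation, lower case with each such unit in capitals. Hspa1a lies on the reverse strand at chr17:34972157-34972406 and Hspb1 on the forward strand at chr5:135887669-135887918.
Hspa1a: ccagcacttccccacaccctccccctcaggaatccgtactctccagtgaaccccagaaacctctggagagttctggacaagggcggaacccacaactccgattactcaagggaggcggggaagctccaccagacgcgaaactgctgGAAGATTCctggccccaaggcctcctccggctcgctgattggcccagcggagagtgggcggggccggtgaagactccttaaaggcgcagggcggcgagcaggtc
Hspb1: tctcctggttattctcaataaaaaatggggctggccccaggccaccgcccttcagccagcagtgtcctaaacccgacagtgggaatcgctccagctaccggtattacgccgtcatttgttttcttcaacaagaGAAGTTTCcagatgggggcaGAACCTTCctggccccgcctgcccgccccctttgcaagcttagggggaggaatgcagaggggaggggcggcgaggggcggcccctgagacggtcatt
The Hspa1a window holds 1 unit and the Hspb1 window 2. At least 1 unit was found in 12.8% of 32851 promoters of the same length, and 2 or more in 1.46%. Both windows of Dnajb1 hold 0 units and that of Jun holds 1. A match describes these letters and is not a measured site.

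Immediate early genes, which cells switch on within minutes of a stimulus without new protein synthesis, held 5 of the lower calls. Fos gave 2260 on WT and 621 on deltaDC thymus (-1.90 ± 0.03), and its AP-1 partner Jun 41815 and 19156 (-1.16 ± 0.07). Fosb gave 261 and 115 (-1.22), Junb 1209 and 620 (-1.0 ± 0.10), and Ppp1r15a, which encodes the stress-induced phosphatase subunit GADD34, 13018 and 4659 (-1.52 ± 0.07). Dusp1, a phosphatase that turns off MAP kinases, was just inside the threshold at 1771 and 928 (-0.97), and Zfp36, an RNA-binding protein that destabilises cytokine messages, was at least 2.02-fold lower. Of 30 measured members 20 lay below 0 and 10 above, 5 were lower and 0 higher, and the median was -0.163. Over all measured genes 0.675% were lower and the median was 0.054. With normexp 3 members of the list were lower. Rgs2, a regulator of G-protein signals, gave 17450 and 11330 (-0.66), and the transcription factor Klf4 481 and 344 (-0.52). Egr1 gave 3127 and 3495 (0.12), Ier2 1612 and 1525 (-0.12), Nr4a1 50420 and 58631 (0.18), and Egr2 1867 and 2762 (0.53). Fos, Jun and Ppp1r15a were lower in deltaDC spleen as well, at -1.76, -1.22 and -1.19, while Fosb and Junb were within the threshold there at 0.02 and -0.35. The RNA integrity numbers of the 4 samples, per the labels, ran from 8.4 to 9.9, and the part of sample handling in these values was not tested.

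The promoter of Ppp1r15a is shown because, of the promoters searched for these stress genes, it holds a match to the cAMP response element, TGACGTCA, which reads the same on both strands and binds factors of the ATF and CREB family. It lies on the reverse strand at chr7:45526269-45526518 in the same annotation, with the element in capitals.
Ppp1r15a: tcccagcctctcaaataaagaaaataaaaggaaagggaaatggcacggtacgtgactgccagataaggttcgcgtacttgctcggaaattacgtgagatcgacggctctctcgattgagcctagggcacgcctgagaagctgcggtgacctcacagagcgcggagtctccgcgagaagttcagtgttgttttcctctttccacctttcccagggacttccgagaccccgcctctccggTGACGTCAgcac
The element was found in 1.55% of the 32851 promoters. The windows of Fos, Fosb, Jun and Junb hold 0 copies of these exact letters.

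**Figure D4:**
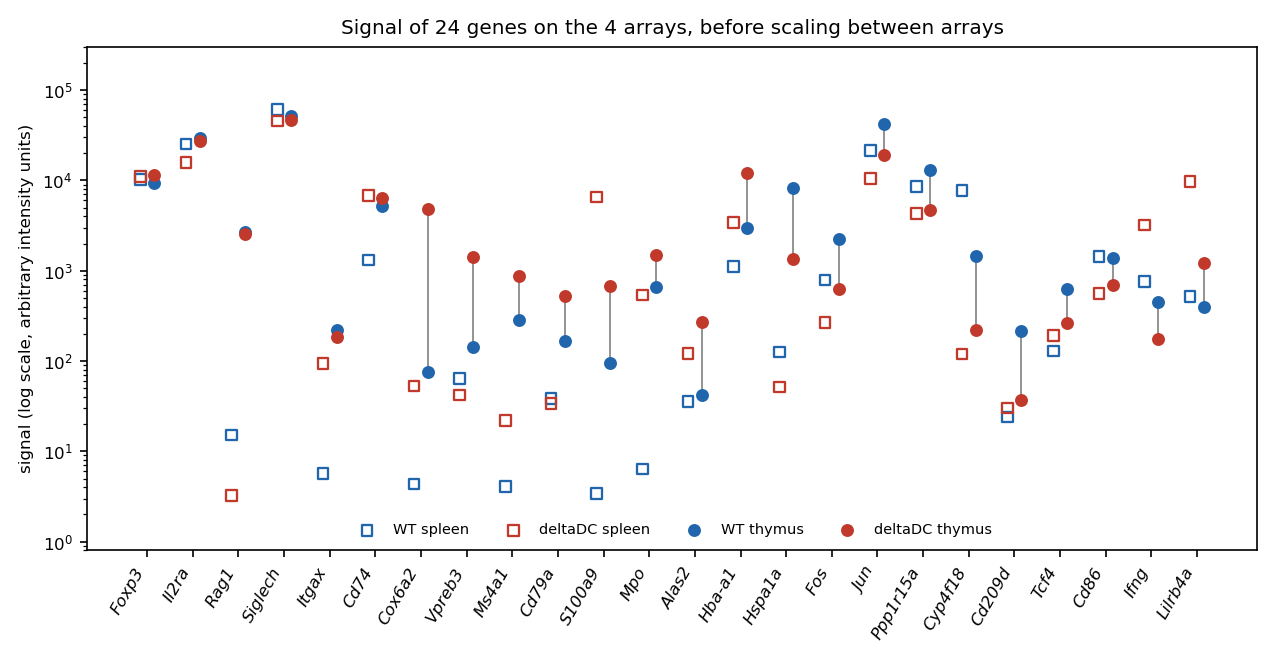
Signal (log axis, arbitrary intensity units, before scaling between arrays) of 24 genes on the 4 arrays. Filled circles are thymus and open squares spleen, blue WT and red deltaDC, and grey lines join the thymus pair of each gene; Foxp3, Il2ra and Rag1 lie together in the thymus, Cox6a2 runs from 76.0 to 4834, and Hspa1a from 8340 down to 1351.

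The remaining functional lists of T cells were close to the median of all genes. For T cell receptor signal genes 1 of 27 measured members was called, the type 1 cytokine gene Ifng at 454 on WT and 175 on deltaDC thymus (-1.42 ± 0.10), and the list median was -0.06. Cd5, a surface protein whose level follows receptor signal strength, gave 74779 and 83401 (0.12), and Cd69, an early activation marker, 2532 and 2533 (-0.04). For genes of the interleukin-2 and STAT5 pathway, its components and targets together, 1 of 24 was called, the granzyme gene Gzmc at 255 and 611 (1.22). Cish and Socs1, feedback inhibitors of that pathway, gave -0.17 and 0.09, and Il2 itself gave 139 and 115 (-0.31 ± 0.16). Of 25 measured genes of NF-kappaB and costimulation 0 were called, with Tnfsf11, the RANK ligand, lowest at 631 and 413 (-0.65). Among helper T cytokines Il4, the type 2 cytokine, was higher at 24.5 and 50.9 (1.02 ± 0.11), from signals near background. In the list of homing receptors Gpr15, which guides T cells to the colon, was lower at 553 and 283 (-1.01 ± 0.11), while S1pr1, the receptor for exit from the thymus, gave 5719 and 8116 (0.47) and its inducer Klf2 12103 and 17680 (0.51). Of 24 helper T transcription factors 0 were called.

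Interferon response genes lay slightly above the median of all genes and mitotic genes slightly below it. Of 31 measured type I interferon response genes 0 reached 2-fold, 27 lay above 0 and the median was 0.166. With quantile normalization that median was 0.103, and in the authors' deposited matrix 0.069 with 22 above 0. Oasl1 led the list at 1410 and 2430 (0.75), followed by Ifit1 at 610 and 985 (0.65). Zbp1, a sensor of nucleic acids, was lowest at 3704 and 2519 (-0.60). Gbp2b, an interferon-inducible GTPase, was at least 7.48-fold lower, at 124 on WT and dim on deltaDC thymus, and in the spleen it gave 476 and 34.9 (-3.97). The other 17 GTPases were within 2-fold with a median of 0.081. Of 34 measured genes of mitosis and S phase 29 lay below 0 and the median was -0.189. Kif11, the motor that separates spindle poles, was the 1 called at 308 and 158 (-1.0 ± 0.14), and Cdk1, the mitotic kinase, was at least 3.02-fold lower from a WT signal of 50.02. Mki67, the proliferation antigen, gave 8058 and 5964 (-0.47), against 1.94 in the spleen, where 20 of 34 of these genes were higher in deltaDC. Mcm6 and Pcna, replication genes, gave 0.03 and 0.09 in the thymus.

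Housekeeping genes of the respiratory chain and ribosome were a little higher on deltaDC. All 41 measured respiratory chain subunits outside cytochrome c oxidase lay above 0, with a median of 0.263, and 0 of them reached 2-fold. Uqcrq, of complex III, was highest at 19538 and 28172 (0.49). With median scaling 40 of these 41 lay above 0, with quantile normalization 37 and in the authors' deposited matrix 36. Of 47 ribosomal protein genes 44 lay above 0 with a median of 0.194, and 40, 33 and 38 under the same 3 settings. The respiratory medians under these settings were 0.225, 0.140 and 0.144, and the ribosomal ones 0.157, 0.058 and 0.069. Over all genes the median was 0.054 in the main setting, and 0.016, 0.007 and 0.005 under these. On the spleen arrays the median of the ribosomal list was -0.267.

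Most genes of thymic epithelium and stroma were weak or not well above background. Prss16, a protease of cortical epithelium, was higher at 343 on WT and 746 on deltaDC thymus (1.09), and Psmb11, the proteasome subunit of the same cells, was at least 2.9-fold higher. Ccl25, the chemokine that draws T cell precursors, gave 1016 and 1788 (0.78), and the keratin Krt8 125 and 240 (0.90). Aire, the regulator of self-antigens in medullary epithelium, and Foxn1, the factor that specifies thymic epithelium, were not well above background on either array. Trp63, the p63 gene of epithelial progenitors, was the lowest measured member at 6198 and 5182 (-0.30). Whether its bright probe reports the gene could not be checked, and its signal is part of the sum given next. The keratin Krt5 gave 42.6 and 35.9 (-0.29). Of 15 measured members 8 lay above 0 and 7 below, 1 was called (0 with normexp) and the median was 0.094, with a summed signal of 22562 on WT and 21820 on deltaDC. Among stromal genes Lamb1, a laminin chain, gave 22.9 and 153 (2.71 ± 0.30) and Sparc, a matrix protein, 79.7 and 196 (1.26), while Snai2, a repressor of the epithelial state, gave 142 and 19.5 (-2.90 ± 0.32). These 3 stromal calls dropped out at a signal of at least 100 on both arrays. The summed signal of the stromal list was 2868 on WT and 3370 on deltaDC, and the part of such cells was not tested. Ptprb, an endothelial phosphatase, had the widest bound of all genes and was at least 10.6-fold higher, while the proteoglycan gene Gpc6 was at least 8.20-fold lower. Wide differences were also seen in genes known mainly from other tissues. Pkhd1, the polycystic kidney gene, gave 30.3 and 199 (2.68 ± 0.30), Mdfi, an inhibitor of myogenic factors, 163 and 834 (2.32), Proc, the protein C gene, 106 and 20.2 (-2.42), and Pou4f1, a factor of sensory neurons, 119 and 34.2 (-1.84). Upb1, an enzyme of pyrimidine breakdown, gave 83.1 on WT and 24.97 on deltaDC (-1.77). Apart from these, the histone gene H2ac6 gave 94.8 and 28.9 (-1.75). It was the 1 called of 33 measured histone genes, of which 24 lay above 0, with a list median of 0.201. With normexp Pou4f1 (-0.88), Upb1 (-0.69) and H2ac6 (-0.83) came under 2-fold. The bounds were at least 9.80-fold for the defensin gene Defa36, 8.90-fold for the muscle myosin gene Myh13, 8.86-fold for Bpifb2 and 8.39-fold for 1700062C10Rik, all higher. Pik3c2g, a lipid kinase gene, was at least 9.03-fold lower.

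Some large differences rested on 1 probe of several. Anp32a, a histone chaperone, gave 1798 on WT and 9531 on deltaDC thymus at its brightest probe (2.37 ± 0.08), and 1887 and 9289 on the spleen arrays (2.10), but another probe of the gene gave -0.16. Bbs7, of the ciliary BBSome, gave 136 and 27.7 (-2.33 ± 0.32) at 1 probe and 0.32 at another. For these genes the value belongs to the probe and not to the gene as a whole.

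Cyp4f18 was the gene with the widest lower difference in the spleen among those called in the thymus. It encodes a cytochrome P450 that hydroxylates leukotriene B4 and other lipids in white blood cells. Its signal was 1443 in WT and 223 in deltaDC thymus, and 7709 in WT and 120 in deltaDC spleen, so deltaDC was low in both organs (-2.73 ± 0.10 in the thymus and -6.21 in the spleen), and a second probe gave -1.97 in the thymus. Of the 137 genes called in the thymus and also measured in the spleen, 36 were higher in deltaDC in both organs by at least 2-fold and 20 lower in both, while 28 of the higher and 43 of the lower genes were within 2-fold in the spleen and 10 went opposite ways. Over all 12532 genes measured in the spleen, 6.42% were higher and 2.01% lower in deltaDC. Dnah7a, a dynein chain, was also lower in both, at 1244 and 513 in the thymus (-1.32) and 1777 and 311 in the spleen (-2.72), as were Rgs9, a regulator of G-protein signals, at 2256 and 1111 (-1.06, and -1.19 in the spleen), and Arntl2, a clock gene, at 210 and 103 (-1.07, and -2.32 in the spleen). Noxa1, an activator of an NADPH oxidase, gave 254 and 103 in the thymus (-1.34) and 929 and 471 in the spleen (-1.18). Prg4, which encodes the lubricant lubricin, gave 173 and 62.7 (-1.5, and -1.18 in the spleen). Also lower in both were Cdh13, Csgalnact1, Cyp2c55, Fam216b, Syce1, Vmn2r111, Wfdc2, Zfp69 and Zfp963, in the thymus from -1.64 for Syce1 to -1.01 for Vmn2r111.

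Receptors, membrane proteins and secreted proteins were among the genes higher in both organs. Lilrb4a, an inhibitory receptor of myeloid and activated lymphoid cells, gave 400 on WT and 1202 on deltaDC thymus (1.55 ± 0.10) and 520 and 9771 in the spleen (4.03), with a second thymic probe at 1.95. Its paralogue Lilr4b gave 46.9 and 144 (1.58, and 4.83 in the spleen); their probes may share targets. Ifitm1, a membrane protein that limits virus entry, gave 302 and 724 (1.22 ± 0.12) and 55.0 and 3017 in the spleen (5.58). Apoc1, an apolipoprotein, gave 178 and 602 (1.72, and 1.24 in the spleen), Tgfbi, a matrix protein, 149 and 325 (1.09, and 2.22), and Lingo4 32.6 and 128 (1.94, and 2.07). Also higher in both were Adgrg5, Atp6v0d2, Cables1, Ccdc102a, D330022H12Rik, Epb41l3, Ffar2, Igf2bp3, Klrb1f, Meis1, Rsph9, St6galnac2, Tiam2, Tspan4 and Upp1, in the thymus from 1.02 for St6galnac2 to 1.84 for Igf2bp3. Spleen and thymus cells of each genotype were taken from the same pool of mice, so agreement between organs is not a replicate.

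**Figure D5:**
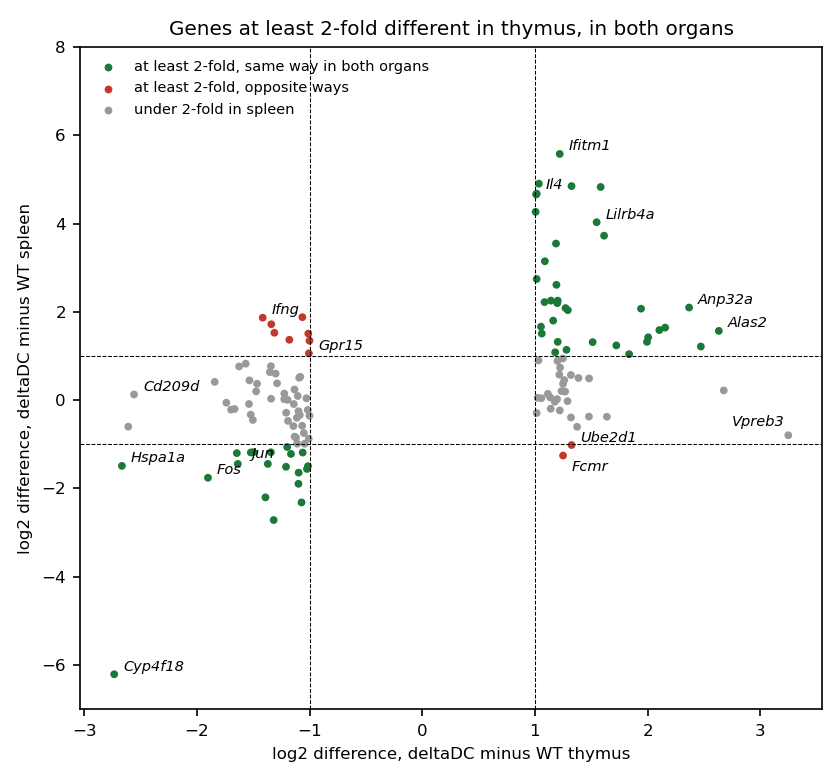
Log2 difference, deltaDC minus WT, in spleen against that in thymus for the 137 genes at least 2-fold different in thymus and above background on both spleen arrays. Green points are 36 genes higher and 20 lower in both organs, red points the 10 that went opposite ways and grey points those under 2-fold in spleen; Cyp4f18 stands apart at -2.73 and -6.21.

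The array also carries 16251 probes named only by position in mm9, most of them for long non-coding transcripts. Of these 4784 were measured on both thymus arrays and 110 (2.3%) differed at least 2-fold, 39 of them upward and 71 downward; their median was -0.02. The lowest was the reverse-strand region chr8:27133090-27133734 at 103 on WT and 22.4 on deltaDC (-2.24), beside chr1:87343550-87362900, reverse strand, at 81.9 and 19.9 (-2.08). Among the highest was chr3:88409887-88421423, forward strand, at 18.9 and 109 (2.49). A group of forward-strand probes on chromosome 16, looked at after the values were seen, was low on deltaDC in both organs. Among 35 forward probes within 300 kb of the lowest one, 7 were measured and 5 were lower, with a median of -1.61 and a range of -2.18 to 0.16. On the spleen arrays 6 of these 7 were lower, with a median of -2.21. The 12 reverse-strand probes of the same stretch were not measured on both arrays. The first and the last of the 5 lower probes are shown with their position on the forward strand of mm9, because no gene name identifies them, in lower case with no part marked.
chr16:40267935-40267994: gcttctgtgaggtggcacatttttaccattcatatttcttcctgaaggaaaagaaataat
chr16:40472353-40472412: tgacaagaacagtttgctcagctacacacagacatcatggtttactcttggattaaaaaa
The first gave 85.4 on WT and 25.7 on deltaDC thymus (-1.77), and 348 and 86.3 in the spleen (-2.21). The last gave 139 and 31.5 (-2.18), and 409 and 100.2 in the spleen (-2.23). The signals were dim on deltaDC, where repeated spots vary most.

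Malat1, an abundant nuclear long non-coding RNA, differed by where it was probed. At its 3′ end 5 probes of adjoining or overlapping sequence, which are not independent, gave signals of 2260 to 3634 on WT and 872 to 1527 on deltaDC thymus, between -1.48 and -1.19. The probe named for the gene, at chr19:5795713-5795772 on the reverse strand of mm9, is shown because it carries this difference.
Malat1: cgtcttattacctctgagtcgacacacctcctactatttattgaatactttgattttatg
It gave 3369 on WT and 1516 on deltaDC thymus (-1.19). A set of 6 probes further upstream in the same transcript lay between -0.45 and 0.10, with signals of 10672 to 305554 on WT and 11758 to 275473 on deltaDC. The neighbouring nuclear RNA Neat1 had 6 probes between 0.09 and 0.30. In the spleen the 5 end probes lay between -0.63 and -0.47. The low value was thus a property of the end probes of Malat1 and not of the transcript as probed elsewhere, and its cause was not tested.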

How the data were processed

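RNA of 4 sorted and pooled samples (10 ng total RNA each, low-input Cy3 labelling, per the labels' protocols) was hybridised to 1-colour Agilent arrays of 1 slide. The intensity values are processed signals deposited by the authors from Feature Extraction 10.7.3.1, per the file headers, which subtracts background. The flags for signal well above background, saturation, outliers and control spots are other columns of the same files, as deposited. The authors' deposited log2 matrix, background-subtracted and quantile-normalized per the file headers, served as an alternative. Control and outlier spots (151 on the WT and 168 on the deltaDC thymus array) were left out, 0 spots were saturated, and each array's signals were divided by its 75th percentile. A gene took its probe with the highest mean. Names came from the RefSeq table for 27593 probes by accession and 3493 by symbol; 24590 probes stayed unnamed, 5 matched several genes.

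A bound sets the bright array's value against the higher of the dim probe's own signal and the lowest signal well above background. With 1 array per group no test was run. The comparison, the 37 gene lists and the rules for named genes were chosen with earlier results of these data known. Named are the 12 largest differences and 5 largest bounds each way, list members called, fixed Treg, dendritic cell and B cell genes, genes with all probes called, genes called in both organs and the 3 largest position-named probes each way. A few genes stay in the counts but are not reported here by name. Calls were checked on simulated data that left out dim probes and held spot error only. That check cannot speak for dim genes, where most calls lay, or for variation between mice, sorts or labellings. Alternatives were normexp (offset 50; limma 3.58.1 in R 4.3.3), quantile and median scaling, the median over probes, no filter, all 4 arrays above background, the matrix, and, chosen after the data were seen, a signal of at least 100. Python 3.11.15 with pandas 2.3.3 and numpy 2.4.6 did the rest.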

Additional observations from a re-analysis of the deposited data

Results flagged for a closer look

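The following went at least 2-fold in opposite directions in the organs, deltaDC minus WT; the difference between the organs was not tested, and each value rests on 1 array per group. Lower in deltaDC thymus and higher in deltaDC spleen were 8 genes. Of all 12532 genes measured in the spleen, 6.42% were higher in deltaDC. Ifng, the type 1 cytokine, gave -1.42 in the thymus and 1.87 in the spleen. Gpr15, a homing receptor, gave -1.01 and 1.06, and Kif11, a mitotic motor, -1.0 and 1.35. Ccn4, a matricellular protein, gave -1.01 and 1.51, and Ccdc80, another matrix protein, -1.06 and 1.88. Ildr1 gave -1.18 and 1.37, Serinc2 -1.34 and 1.72, and Shtn1, a regulator of axon growth, -1.31 and 1.53.

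Higher in deltaDC thymus and lower in deltaDC spleen were 2 genes. Of all genes measured in the spleen, 2.01% were lower in deltaDC. Fcmr, the Fc receptor for IgM, gave signals of 198 and 483 in the thymus (1.25) and 383 and 184 in the spleen (-1.26). Ube2d1, a ubiquitin-conjugating enzyme, gave 1.33 and -1.02. The 2 position-named probes with the largest higher values in the thymus also turned over. The probe of chr2:153325670-153352170, reverse strand, gave 40.5 on WT and 322 on deltaDC thymus (2.95), and 355 and 55.5 in the spleen (-2.88). The probe of chr12:88235624-88264465, reverse strand, gave 25.6 and 207 (2.98), and 131 and 18.9 in the spleen (-3.00). The nearest reverse-strand probes on chromosome 12, within 0.27 kb of this one, were not measured on both thymus arrays. Their signals were 3.4 to 10.31 on WT and 3.91 to 10.48 on deltaDC thymus, so the high value rests on 1 probe. The other 3 measured reverse-strand probes within 30 kb were further away and lay between -0.97 and -0.06 in the thymus. In the spleen 1 of them was lower (-1.52). On chromosome 2 no other probe within that distance was measured on both thymus arrays.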

How the results depend on the processing

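No paired analysis was possible because each group had 1 array and the labels carry no replicate numbers. The 88 named genes at least 2-fold different that were measured on both thymus arrays kept their direction under every alternative that gave a value. They did not always keep their call. Of 25 within 2-fold, 5 near 0 changed sign (Cd3e, Cd4, Ctla4, Il2rb, Tnfrsf4). Named genes with only a bound were not checked in this way. The 209 genes at least 2-fold different (121 higher, 88 lower) became 57 (36 and 21) with normexp, which adds an offset to all signals, 137 (66 higher) among genes above background on all 4 arrays, 69 (38 and 31) at a signal of at least 100 on both arrays, and 1657 (949 and 708) with no filter. Quantile normalization gave 214, median scaling 206, the median over probes 204 and the deposited matrix 256, of which 187 were the same genes. Genes called the same way in both organs, 56, became 13 with normexp, 343 with no filter and 16 at a signal of at least 100. Bounds of at least 2-fold, 252, became 503 when the dim probe's own signal was used. Lists with a median of at least 0.5 in size, 4, became 2 with normexp, 2 on all 4 arrays and 1 at a signal of at least 100. The neutrophil median, 0.844, turned to -0.020 on all 4 arrays, where the dim members drop out. With normexp 52 named genes came under 2-fold, among them Ccl17 (-0.83), Il4 (0.36), Gpr15 (-0.80), Kif11 (-0.81) and Cd86 (-0.99), while Snai2 gave -1.35 and Cox6a2 5.10. The B cell median was 0.472 on all 4 arrays, and the erythroid median 0.276 at a signal of at least 100. At signals under 50 the spot error was 0.28 on the WT and 0.30 on the deltaDC thymus array, which limits what dim genes can show. Apart from the genes that each filter leaves out, why counts and medians moved was not tested.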

Other observations

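Of the 209 genes called in the thymus, 50 belonged to a gene list and 159 to none. The lists hold 773 of the 22314 named genes on the array, measured or not. The 209 could come only from the 13041 genes measured on both thymus arrays, so these counts have different bases. The lists were also chosen with earlier results of these data known. The bright ones among the 159 were picked out here after their values were seen. Ddit4, a stress-induced inhibitor of mTOR signalling, gave 31766 on WT and 14131 on deltaDC thymus (-1.21), but 37577 and 35440 on the spleen arrays (-0.29). Ormdl1, a regulator of sphingolipid synthesis, gave 2014 and 904 (-1.19, and 0.01 in the spleen). Tubb2b, a beta-tubulin, gave 2138 and 5104 (1.22), with another probe at 0.54. Serinc3, a membrane protein, gave 28157 and 11740 at its brightest probe (-1.30), while another of its 3 measured probes gave 0.04. Tomm5, of the mitochondrial import pore, gave 6238 and 13331 (1.06) at 1 probe and 0.26 at another. Cd34, a progenitor surface protein, gave 311 and 913 (1.52) at 1 probe and -0.68 at another.

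Probes for immunoglobulin variable segments, grouped by the name in the files after the values were seen, numbered 29, of which 17 were measured on both thymus arrays. Of these 4 were higher on deltaDC, 0 lower, 11 lay above 0, and the median was 0.24 with a range of -0.98 to 1.52. Over all measured genes 0.928% were higher. The brightest immunoglobulin probes were level, at 22581 and 22853 (-0.02), 13406 and 13871 (0.01), and 1664 and 1619 (-0.08). The higher probes other than that of Iglv1 were dimmer, at 40.9 and 92.1 (1.13), 82.7 and 243 (1.52), and 123 and 355 (1.49). Iglv1, a lambda light chain segment, gave 503 on WT and 1072 on deltaDC thymus (1.05). At Btg1, an antiproliferative gene, the brighter probe gave 63111 and 73600 (0.18), and a second forward probe 3.29 kb further on 6078 and 2276 (-1.46, and -1.37 in the spleen). Of 5 reverse-strand probes there 2 were lower.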
